A study of Gasterosteus aculeatus with 242 samples.

Results

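The 40 genes described here were ENSGACG00000005997, called the leading gene here and taken because its level was higher on the right than on the left side of the threespine stickleback brain in these data, and the 39 genes whose levels rose and fell most closely with it from fish to fish. They were taken from 11023 genes with a mean of at least 2 CPM (a gene's counts scaled to a library of 1000000 counts), out of 22456 gene identifiers in the deposited table. For each gene, log2(CPM + 1) was computed in each fish, the mean of the fish's plate was subtracted, and genes were ranked by Spearman correlation with ENSGACG00000005997 over all fish but 1 of the 242. The leading gene had thus been chosen by its side difference and the others by their correlation with it in the same libraries, so the correlations and the side differences below are descriptions and support nothing further.

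Brain mRNA was measured by 3′ tag sequencing in juvenile threespine sticklebacks (Gasterosteus aculeatus) of 16 families with wild-caught fathers from Putah Creek, California. In 8 families the father raised the offspring (Day 10) and in 8 the offspring were reared by hand without him (Day 0). At 6 to 8 months, before sexual maturity, open-field fish explored a pool for 10 minutes, met a moving model of a predatory sculpin, were watched for 10 more minutes and were dissected 60 minutes after the attack. Baseline fish were full siblings taken from the home tank without entering the pool and dissected within 30 minutes of the partner. RNA came from a single side of each brain, left or right, and the other side went to another assay, so no fish gave both sides. Left and right sides, females and males, baseline and open-field fish, and hand-reared and father-reared fish were each about 120 in number.

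In threespine sticklebacks the male builds the nest, fans the eggs and guards and retrieves the fry, so that removing him deprives the brood of its whole parental care. Left and right sides of the brain are not mirror images in many fishes, the habenula being the best known example. A 3′ tag is read close to the poly(A) tail, so that long transcripts do not give more counts than short ones. The files give genes by Ensembl identifier only, and 0 of the 22456 identifiers matched the reference gene table, so no member has a name, a position or a known role here, and the tissue could not be checked against marker genes. In a piece of brain, fewer cells of a type and less RNA per cell cannot be told apart.

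Usable libraries held 706544 to 1529047 counts, with a median of 1007692, so that 1 CPM was close to 1 count. A single library of 2055 counts, from a hand-reared open-field fish, was left out. The rank correlation with library size was 0.11 for ENSGACG00000005997 and 0.097 for the mean of the 40 genes, over all usable fish. The strand setting of the counting is not given in the sources used here, so members with near-identical copies, overlapping neighbours or antisense partners could have counts that belong partly to another gene.

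ENSGACG00000005997 had a low or a high level in most fish, with few fish between. It ranged from 16.8 to 648.3 CPM, with a median of 44.2 CPM and quartiles of 35.5 and 143.03 CPM. In 75 fish (31.1%) it was at or above 83.4 CPM, and in all others it was at or below 73.3 CPM. At middle levels there were 8 fish from 60 to 80 CPM, 4 from 80 to 100 CPM and 3 from 100 to 120 CPM. A value of 80 CPM, chosen after the levels had been seen, is used below only to count fish on either side of it.

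**Figure D1:**
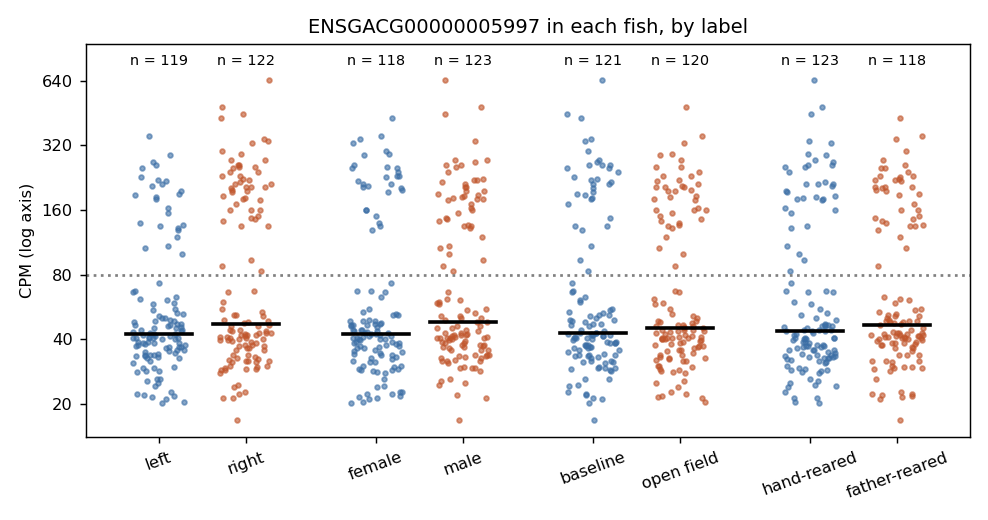
CPM of ENSGACG00000005997 in each usable fish (points, log axis, n printed above), by brain side, sex, exposure and rearing, with the median of each group (black bar) and a dotted line at 80 CPM. Every group holds fish on both sides of the line, and 49 right sides (40.2%) lay above it against 26 left sides (21.8%).

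The members followed ENSGACG00000005997 to different degrees. Its 4 closest followers were ENSGACG00000018317 (Spearman correlation 0.778), ENSGACG00000006561 (0.776), ENSGACG00000014829 (0.773) and ENSGACG00000016460 (0.773). The correlation was at least 0.7 for 11 members, from 0.6 to 0.7 for 5, from 0.5 to 0.6 for 7 and below 0.5 for 16. The last member, ENSGACG00000017191, had a correlation of 0.426 and the first gene outside, ENSGACG00000003173, had 0.418, so the list ends on a slope and not at a gap. Over all 11023 genes the median correlation was -0.018 and the 99th percentile 0.288. Members also varied with each other: all 780 pairs of the 40 genes had a positive correlation, with a median of 0.461 and a range of 0.109 to 0.901. Among the 17 genes at a correlation of at least 0.6 with the leading gene (itself included) the median pair had 0.695, and among the other 23 it had 0.341.

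The members' levels spanned a wide range. The highest mean was 608.8 CPM ± 76.8 (SD over all usable fish) in ENSGACG00000019287, and the lowest was 2.16 CPM ± 2.16 (SD) in ENSGACG00000010790. The median member had a mean of 23.9 CPM, against 17.2 CPM for all genes tested. In 14 members the mean was under 10 CPM, about 10 counts in a library, and 24 members had at least 1 fish with no count at all, where a count of 0 allows up to 3. The SD of log2(CPM + 1) over fish, with plate means subtracted, had a median of 1.03 in the members and 0.49 in all genes, and 24 of the 40 members were among the 5% of genes that varied most.

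Of the 40 members, 9 were near 0 in most fish and far higher in some of the others. They are called wide-range members here, defined after the levels had been seen as genes whose 90th percentile over fish plus 1 CPM was over 10 times the median plus 1 CPM. Such genes were 22.5% of the members and 0.245% of all genes, 27 in number, so that the members made up 33.3% of them. ENSGACG00000009153 ranged from 0 to 4987 CPM with a median of 2.02 and a 90th percentile of 1609 CPM, and had no count in 60 fish. ENSGACG00000006561 ranged from 0 to 2109 CPM, with a median of 2.31 and a 90th percentile of 1063 CPM. ENSGACG00000014829 ranged from 0 to 670.6 CPM, with a median of 0 and a 90th percentile of 265.8 CPM. ENSGACG00000018317, the closest follower, was much scarcer, with a median of 0, a 90th percentile of 19.9 and a highest value of 32.5 CPM. ENSGACG00000011475 had a median of 1.02, a 75th percentile of 4.35, a 90th percentile of 22.5 and a highest value of 1025 CPM. ENSGACG00000016460, in contrast, was present in every fish, from 12.6 to 268.9 CPM with a median of 36.9 CPM, and is not a wide-range member. The most abundant member, ENSGACG00000019287, varied least, from 432.3 to 874.3 CPM.

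**Figure D2:**
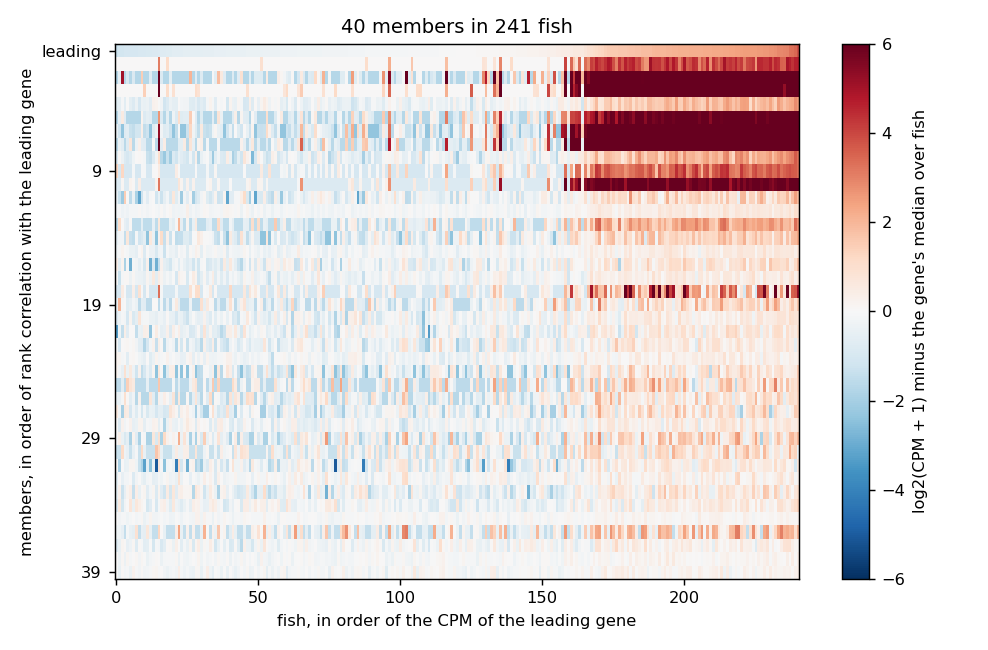
log2(CPM + 1) of the 40 members minus each gene's median over fish (colour, clipped at the ends of the scale), with the fish in order of the CPM of ENSGACG00000005997 and the genes in order of rank correlation with it. The 75 fish over 80 CPM stand at the right edge, where the wide-range members are deepest in colour and the weaker followers are paler.

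The wide-range members were high in the same fish. A member was counted as high in a fish when it was over 10% of its own 90th percentile, a level that ran from 1.99 to 160.9 CPM. For ENSGACG00000018317, ENSGACG00000011475 and ENSGACG00000001526 that level was 1.99, 2.25 and 2.52 CPM, about 2 to 3 counts, so a fish counted as high in these 3 may hold few counts. Of all fish, 63.5% had 0 or 1 of the 9 members high, 20 fish having 1, whereas 33.6% had 8 or 9, with 17 fish at 8 and 64 at 9. The 7 fish between, with 2 to 7 of the 9 members high, made up 2.90%. All 75 fish with ENSGACG00000005997 over 80 CPM had 8 or 9 of them high, and the other 6 such fish had it at 47.5 to 73.3 CPM. In 8 of the 9 members no fish with the leading gene over 80 CPM was low, and the exception, ENSGACG00000011475, was high in 62 of those 75 fish. These members had been chosen by their correlation with the leading gene in the same fish. The 80 CPM line was also set after seeing the levels, so the joint counts are descriptions. Together the 40 members took 0.144% to 1.24% of the counts of a library, with a median of 0.202%.

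**Figure D3:**
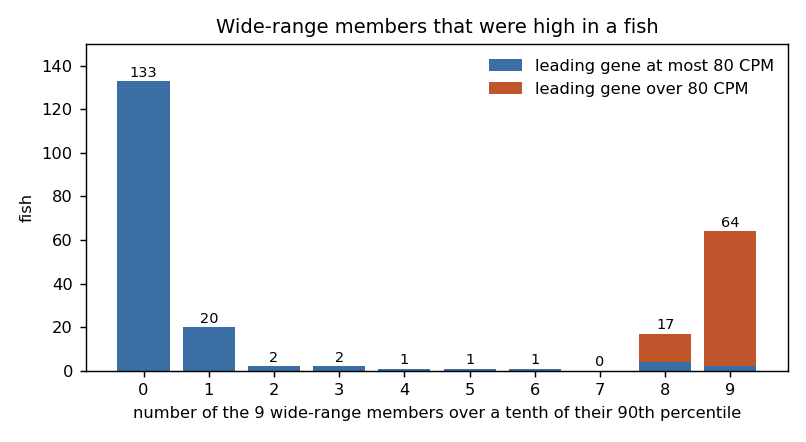
Number of fish (bars, counts printed above) by how many of the 9 wide-range members were over 10% of their own 90th percentile, with fish coloured by whether ENSGACG00000005997 was over 80 CPM. Fish fall at 0 or 1 (63.5%) and at 8 or 9 (81 fish), with 7 fish between.

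Within fish on one side of 80 CPM the members followed the leading gene less closely. The median correlation of the 39 followers was 0.147 over the fish at or under 80 CPM and 0.207 over the 75 fish above it, and 36 of the 39 were above 0 in each. Over all genes the median was 0.002 and 0.012. Among genes outside the members the 99th percentile was 0.192 and 0.295, above the median follower in each. Narrowing a range of values lowers a correlation by itself, so these are descriptions. Among the 9 wide-range members, the median pair had a correlation of 0.324 over the 75 fish, from -0.134 to 0.837.

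The correlations were present in each part of the sample. The median correlation of the 39 followers was 0.539, 0.534 and 0.661 on plates 1, 2 and 3, 0.482 over left sides and 0.608 over right sides, and 0.514 over females and 0.580 over males. It was 0.513 over baseline and 0.576 over open-field fish, and 0.546 over hand-reared and 0.597 over father-reared fish. All 39 were above 0 in each of these subsets. The subsets are parts of the same fish that chose the genes, so these values are descriptions only. Choosing the 39 genes anew on fish of the other plates gave 36, 35 and 35 of the same genes when plates 1, 2 and 3 were left out. In the plate left out, their median correlation was 0.526, 0.528 and 0.661, while the median over all genes was between -0.023 and -0.010. Of the 39 genes, 26, 28 and 27 were also among the 39 highest of the plate left out. The leading gene had been taken from the same libraries, those of that plate among them. Each plate also holds siblings of fish on the others, so these values are descriptions too.

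The first label compared was brain side, which had been used to choose the leading gene. ENSGACG00000005997 had a lowest, median and highest level of 20.2, 42.3 and 352.4 CPM in left sides and 16.8, 46.98 and 648.3 CPM in right sides. Its mean was 71.99 CPM ± 68.5 (SD over fish) on the left and 116.2 CPM ± 115.8 (SD over fish) on the right. The groups overlapped from 20.2 to 352.4 CPM, and all levels above that were in right sides. It was over 80 CPM in 26 left sides, 21.8% (95% exact Clopper-Pearson interval over fish 14.8 to 30.4), and in 49 right sides, 40.2% (31.4 to 49.4). With 8 or 9 wide-range members high, the counts were 30 left sides (25.2%) and 51 right sides (41.8%).

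Fitted right-minus-left differences were above 0 in all 40 members, with a median log2 fold change of 0.27 against 0.00033 over all genes. The fit was edgeR's quasi-likelihood test with family, plate, sex and exposure as covariates, and a gene was called at a Benjamini-Hochberg adjusted p under 0.05 over all 11023 genes. It called 1 member, higher on the right, where 0.0363% of all genes were called higher on the right and 0.0272% lower. That member was ENSGACG00000016172, with a lowest, median and highest level of 42.5, 176.3 and 554.6 CPM in left sides and 58.4, 237.9 and 613.1 CPM in right sides. Its groups overlapped from 58.4 to 554.6 CPM, and its log2 fold change was 0.40 ± 0.08 (SE). For ENSGACG00000005997 the fitted log2 fold change was 0.64 ± 0.16 (SE, edgeR adjusted p = 0.063), and it was not called, while 4 genes in all, ENSGACG00000016172 among them, were called higher on the right. Over 31 alternative settings the adjusted p of the leading gene ran from 0.016 to 1, and it was under the threshold in 11. These were DESeq2 (0.035), edgeR's filterByExpr, no family block, no plate term, plate 2 left out, the 1 or the 3 fish highest in ENSGACG00000011475 left out, and family 17, 22, 35 or 39 left out. Nothing is read from these side values, because the same fish chose the genes.

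Side values were also fitted within plates. Fitted on plate 1 alone, the median log2 fold change of the members was 0.40 and 40 of 40 were above 0. On plate 3 alone it was 0.39 with 39 of 40 above 0, whereas on plate 2 alone it was -0.01 with 17 of 40 above 0. On a single plate edgeR called 0 genes of any kind for side. At an unadjusted p under 0.05 there were 18, 1 and 17 members and 757, 483 and 585 of all 11023 genes on plates 1, 2 and 3. ENSGACG00000005997 was over 80 CPM in 7 of 49 left and 16 of 41 right sides on plate 1, in 13 of 43 left and 18 of 48 right sides on plate 2, and in 6 of 27 left and 15 of 33 right sides on plate 3. Whether the side difference differs between plates was not tested.

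**Figure D4:**
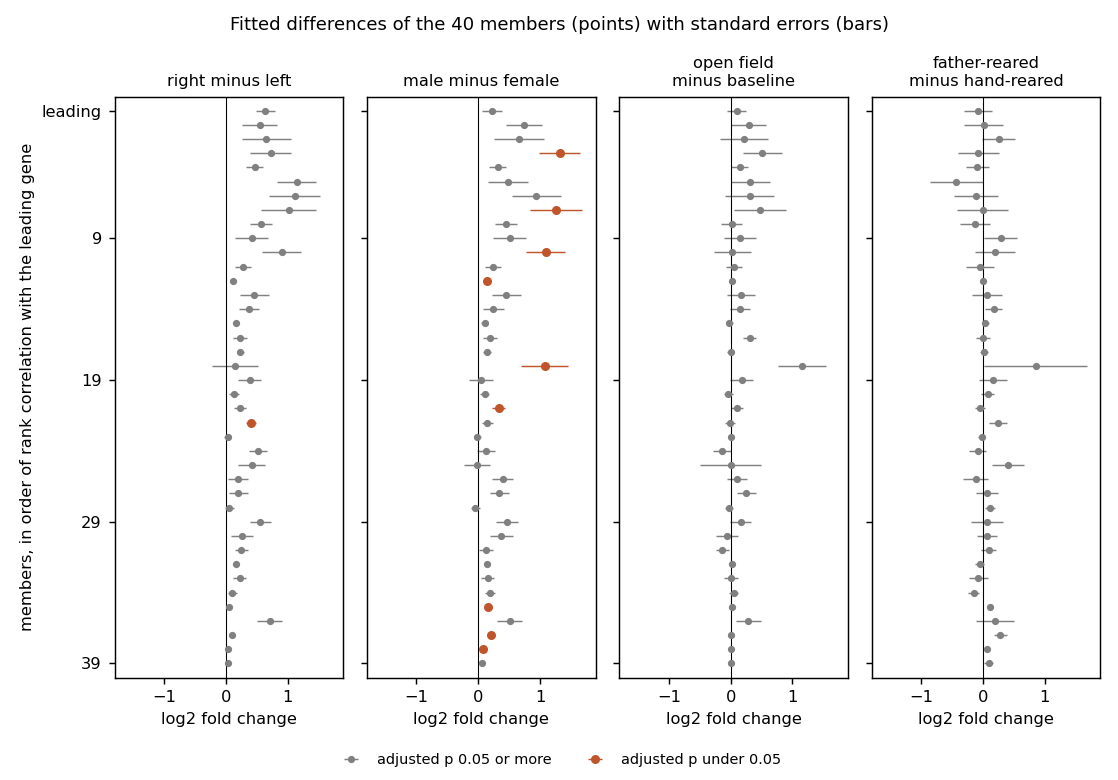
Fitted log2 fold changes (points) with standard errors (bars) of the 40 members for side, sex, exposure and rearing, with genes in order of rank correlation with ENSGACG00000005997. Orange points are called (1 member for side, 9 for sex, 0 for exposure and 0 for rearing), and all 40 side values lie above 0.

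Sex played no part in choosing the genes. Of the 40 members, 9 were higher in males and 0 in females at the threshold, which is 22.5% against 6.71% of all genes called higher in males and 4.42% called higher in females. The fitted male-minus-female difference was above 0 in 37 members, with a median log2 fold change of 0.23 against 0.0078 over all genes. DESeq2 called 6 members, all higher in males, where it called 794 of 11023 genes higher in males and 480 lower. Members vary together, so their calls are not independent of each other.

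The 9 members called by edgeR were of differing kinds. Of these, 4 were wide-range members with log2 fold changes of 1.07 to 1.32, which is 2.11- to 2.49-fold, and 5 were steadier genes with log2 fold changes of 0.07 to 0.33, which is 1.05- to 1.26-fold. ENSGACG00000014829 had a lowest, median and highest level of 0, 0 and 356.9 CPM in females and 0, 0.799 and 670.6 CPM in males. Its mean was 41.5 CPM ± 74.4 (SD over fish) in females and 103.7 CPM ± 152.9 (SD over fish) in males, and its log2 fold change was 1.32 ± 0.33 (SE, edgeR adjusted p = 0.0015). The median fish of either sex was at or near 0, and the sexes overlapped from 0 to 356.9 CPM.

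ENSGACG00000009153 had a lowest, median and highest level of 0, 1.56 and 3052 CPM in females and 0, 2.85 and 4987 CPM in males. Its log2 fold change was 1.26 ± 0.42 (SE, edgeR adjusted p = 0.033). Both sexes again overlapped from 0 upward. The DESeq2 test called neither of these genes, with adjusted p of 0.19 for ENSGACG00000014829 and 0.10 for ENSGACG00000009153. ENSGACG00000019287, the most abundant and least variable member, was at 432.3, 574.5 and 813.1 CPM (lowest, median, highest) in females and 479.4, 627.9 and 874.3 CPM in males. Its log2 fold change was 0.17 ± 0.02 (SE, edgeR adjusted p = 7.4e-15), a small difference over overlapping groups. ENSGACG00000011475 was called with a log2 fold change of 1.07 ± 0.38 (SE, edgeR adjusted p = 0.049), although its means were nearly equal, 20.6 CPM ± 133.1 (SD over fish) in females and 21.04 CPM ± 66.5 (SD over fish) in males.

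ENSGACG00000005997 itself was not called for sex, with a log2 fold change of 0.23 ± 0.16 (SE, edgeR adjusted p = 0.48). It was at 20.2, 42.6 and 430.0 CPM in females and at 16.8, 48.2 and 648.3 CPM in males. It was over 80 CPM in 29 females, 24.6% (exact interval 17.1 to 33.4), and in 46 males, 37.4% (28.8 to 46.6). By side and sex, it was over 80 CPM in 8 of 58 left females, 18 of 61 left males, 21 of 60 right females and 28 of 62 right males. Fitted on single plates, the median log2 fold change of the members for sex was 0.14, 0.30 and 0.20 on plates 1, 2 and 3, with 32, 38 and 31 of 40 above 0. On these plates 1, 6 and 1 members were called by edgeR, all higher in males, where 1.33%, 2.39% and 0.88% of all genes were called higher in males and 3.07%, 3.05% and 2.59% lower.

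Exposure to the open field and the model predator was the second label that the rule did not use. No member was called, while 0.463% of all genes were called by the same edgeR test, 0.408% higher and 0.0544% lower in open-field fish. At an unadjusted p under 0.05 there were 2 members of 40 and 649 of all genes, and DESeq2 called 1 member, higher in open-field fish, among 56 genes higher and 8 lower. Members had a median log2 fold change of 0.05, and 31 of 40 were above 0, but they vary together, so these signs are not independent. Fitted on plate 1 alone the median was 0.29 with 35 of 40 above 0, on plate 2 alone it was -0.03 with 17, and on plate 3 alone -0.02 with 17. On plates 1, 2 and 3 alone there were 12, 1 and 1 members and 672, 613 and 500 of all genes at an unadjusted p under 0.05. There edgeR called no member, where 0.236%, 0.191% and 0.218% of all genes were called higher and 0.00907%, 0.00907% and 0% lower. With plate 1 left out the median was -0.01 with 17 of 40 above 0. ENSGACG00000005997 was at 16.8, 42.7 and 648.3 CPM (lowest, median, highest) in baseline fish and at 20.4, 45.1 and 484.5 CPM in open-field fish, with a log2 fold change of 0.10 ± 0.15 (SE, edgeR adjusted p = 0.99). It was over 80 CPM in 34 baseline fish, 28.1% (exact interval 20.3 to 36.99), and in 41 open-field fish, 34.2% (25.8 to 43.4). The member that DESeq2 called was ENSGACG00000011475, with a log2 fold change of 1.50 and an adjusted p of 0.048 in DESeq2 and of 1.16 ± 0.39 (SE, adjusted p = 0.31) in edgeR. It was at 0, 1.01 and 1024 CPM (lowest, median, highest) in baseline fish and at 0, 1.22 and 1025 CPM in open-field fish.

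Rearing was compared over families, 8 against 8, on counts summed over the fish of each family, since whole families were raised one way. No member was called, and neither was any other gene (0% of 11023 by edgeR). At an unadjusted p under 0.05 there were 2 members and 791 genes in all, and DESeq2 called 46 genes with 0 members among them. Members had a median log2 fold change (Day 10 minus Day 0) of 0.05, and 23 of 40 were above 0. For ENSGACG00000005997 it was -0.08 ± 0.23 (SE, edgeR adjusted p = 0.98). It was over 80 CPM in 36 hand-reared fish, 29.3% (exact interval 21.4 to 38.1), and in 39 father-reared fish, 33.1% (24.7 to 42.3). As a mean over families that share was 29.3% ± 12.6 (SD, n = 8) in hand-reared and 32.6% ± 14.8 (SD, n = 8) in father-reared families. The exact intervals over fish treat siblings as independent, so they are not intervals for a comparison of rearing.

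The mean of the 40 members on the log2 scale, with plate means subtracted, gives the size of these contrasts on one scale. It was 0.42 higher on the right, 0.30 higher in males and 0.08 higher in open-field fish, beside an SD of 1.101 over fish. Over family means it was -0.04 ± 0.27 (SD, n = 8) in hand-reared and 0.04 ± 0.31 (SD, n = 8) in father-reared families. On plates 1, 2 and 3 it was 0.34, 0.06 and 0.26 in right sides and -0.28, -0.07 and -0.32 in left sides. No test was made of this mean. Side had been used to choose the leading gene, and correlation with that gene chose the other members. The side value is therefore a description and is not to be ranked against the values for sex, exposure and rearing.

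Families shared little of the variation in most members. The intraclass correlation over families, the share of variance that lies between families, had a median of 0.0088 in the members and 0.063 in all genes. It was highest in ENSGACG00000017191 (0.277) and ENSGACG00000019287 (0.265), which are among the weakest followers, and lowest in ENSGACG00000007269 (-0.03) and ENSGACG00000006299 (-0.03). ENSGACG00000005997 had 0.0092. Every family held at least 1 fish with it over 80 CPM, from 1 of 16 fish (6.25%) in family 04 to 9 of 15 (60%) in family 31. Its mean log2 level was higher on the right in 11 of 16 families, a description only, since its side difference in these fish had chosen it.

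**Figure D5:**
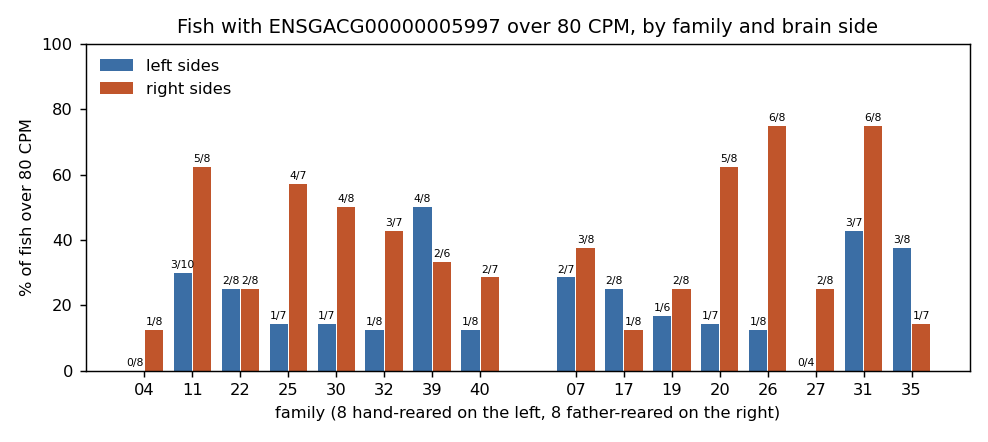
Share of fish with ENSGACG00000005997 over 80 CPM (bars from 0, in %) among left and right sides of each of 16 families, with the numbers of fish above the bars. The 16 families range from 1 of 16 fish to 9 of 15 fish over both sides.

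Whether the side difference itself depended on another label was tested with interaction terms. For sex and for rearing 0 members and 0% of all genes were called by edgeR, with 1 member and 520 genes at an unadjusted p under 0.05 for sex and 1 member and 455 genes for rearing. DESeq2 also called 0 members in both. Fish of a family are not independent for rearing, so that last term is given with this limit. For exposure, 1 member was called, and it was the 1 gene of 11023 (0.00907%) that edgeR called, with a lower side difference in open-field than in baseline fish. The interaction was above 0 in 11 of the 40 members for exposure, in 11 for sex and in 12 for rearing. Its median over members was -0.09, -0.07 and -0.11, beside a median SE of 0.29, 0.31 and 0.29. Members vary together, so these signs are not independent of each other and nothing is read from their counts.

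The member called for side by exposure was ENSGACG00000011475, the wide-range member with the lowest correlation with the leading gene (0.566). It was at 0, 1.00 and 67.8 CPM (lowest, median, highest) in 58 baseline fish of the left side and at 0, 1.104 and 1025 CPM in 61 open-field fish of the left side. On the right it was at 0, 1.02 and 1024 CPM in 63 baseline fish and at 0, 1.79 and 288 CPM in 59 open-field fish. The means were 3.71 and 39.9 CPM on the left and 27.0 and 11.3 CPM on the right, baseline first, while the medians were all within 1 CPM of each other. The right-minus-left log2 fold change was 3.89 lower in open-field fish (interaction -3.89 ± 0.76 SE, edgeR adjusted p = 0.0080). Without the 1 fish with the highest level, an open-field fish measured on the left side, the interaction was -3.45 with an adjusted p of 0.056. Without the 3 fish with the highest levels it was -1.27 with an adjusted p of 1, and DESeq2 on all fish gave -2.90 with an adjusted p of 0.48.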

How the data were processed

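The authors deposited raw counts of reads per Ensembl gene, with a column for every lane of every library (242 libraries, 6 lanes, 1452 columns), and columns were assigned to fish through the labelled library names. HTSeq 0.9.1, STAR 2.2.3a and FastQC 0.11.8 are listed in the submitters' processing notes, without settings. Genome build, annotation, strand and duplicate handling: not given in the sources used here. Lanes were summed and a library under 500000 counts was dropped. CPM used the library total.

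Family was taken as the number that opens a fish code, and plate as the digit that opens a library name. The 241 usable fish were 119 left and 122 right sides, 118 females and 123 males, 121 baseline and 120 open-field fish, and 123 hand-reared and 118 father-reared fish. Side, sex, exposure and their interactions were tested on 241 fish with edgeR 4.0.16 (quasi-likelihood F-test, TMM scaling, Benjamini-Hochberg over 11023 genes, R 4.3.3), with family and plate as covariates. Rearing was tested on family sums. Standard errors were obtained from the log2 fold change and its F statistic. The test script was tested on simulated data. Fish are separate animals. Shared parents between families are not given and were not modelled. Exact intervals cover counting of fish only and treat siblings as independent.

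Alternatives were DESeq2 1.42.0, other filters, terms, plates, families and pseudocounts. limma-voom (limma 3.58.1), the 80 CPM line, the wide-range definition and leaving out fish highest in ENSGACG00000011475 were chosen after seeing the data. The members and the gene lists were chosen with earlier results of these data known. Gene lists need symbols and were not used. Genes were named by rule: the leading gene, its 4 closest followers, the last member and the first gene outside, the extremes of mean CPM and of family share, and per comparison at most 2 members called higher and 2 lower with the largest fold changes. Open-field and baseline fish with the same family and fish number were taken as pairs (114 pairs). The labels do not state this pairing of codes. Such fish always shared the brain side.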

Additional observations from a re-analysis of the deposited data

Results flagged for a closer look

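ENSGACG00000011475 was singled out because edgeR called its interaction of side and exposure, -3.892 on the log2 scale (edgeR adjusted p = 0.0080). The fish with the 3 highest levels were an open-field fish (left side) at 1025 CPM, a baseline fish (right side) at 1024 CPM and an open-field fish (left side) at 461 CPM, against group medians of 1.00 to 1.79 CPM. Without the first of them the edgeR adjusted p was 0.056. Without all 3 of them the interaction was not called, and DESeq2 on all fish did not call it either. Family means of 5 measures were checked for a family far from the others within each rearing group, 10 sets of 8 families in all, and 0 stood apart.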

How the results depend on the processing

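Of the 39 followers, 25 were chosen again when genes needed a mean of at least 10 CPM, a filter that 14 members could not pass, and 29 to 39 under every other alternative run (34 to 39 with 1 family left out). The count of members called for side, 1 as reported, was 3 with DESeq2, 3 with filterByExpr (which kept 31 members), 2 without the family block, 2 without the plate term, 0 on plates 1, 2 and 3 alone, 0 with plate 1 or plate 3 left out, 6 with plate 2 left out, 3 without the 1 or the 3 fish highest in ENSGACG00000011475, and 1 to 4 with 1 family left out. With plate 2 left out, 16 of 11023 genes were called higher on the right and 1 lower. With DESeq2 these were 10 and 4, and with filterByExpr 10 and 5 of 7687 genes. Of 11023 genes they were 4 and 2 without the family block and 7 and 4 without the plate term. They were 7 and 5 without the 1 or the 3 fish highest in ENSGACG00000011475. With plate 1 left out they were 0 and 0, and with plate 3 left out 1 and 2. With 1 family left out they were 2 to 13 and 2 to 5. For sex, 9 as reported, the count of members was 6 with DESeq2, without the plate term or on plate 2 alone. It was 1 on plate 1 or plate 3 alone and 5 to 13 with 1 family left out. In the fits with 1 family left out, 628 to 719 of 11023 genes were called higher in males and 451 to 489 lower. Without the plate term, 635 of 11023 genes were called higher in males and 457 lower. With plates 1, 2 and 3 left out the count of members was 4, 1 and 5. There, 548, 362 and 516 of 11023 genes were called higher in males and 436, 387 and 418 lower. With plate 2 left out the members' share was not above that of all genes. Families whose loss took the sex count to 5 were 11, 25, 30, 32 and 39, and those whose loss raised the side count to 2 or more were 17, 22, 35, 39 and 40. For exposure, 0 as reported, the count of members was 1 with DESeq2 and 0 to 1 with 1 family left out, the 1 being without family 07. Without family 07, 42 of 11023 genes were called higher in open-field fish and 4 lower. For side by exposure, 1 as reported, the count of members was 0 with DESeq2 and 0 without the 1 or the 3 fish highest in ENSGACG00000011475. For rearing it was 0 throughout, 0 to 0 with 1 family left out. The exposure difference of ENSGACG00000005997 changed sign with plate 1 left out (-0.0635) and on plates 2 (-0.0842) and 3 (-0.047) alone, and its rearing difference did so without family 25 (0.0828), within a range of -0.18 to 0.0828. None of these values was called. The cause of these changes was not tested. With the pair read from the fish codes, which the labels do not state, as a replicate block in place of family, 0 members were called for exposure, as without it. The block cannot test side, which both fish of a pair shared, or rearing. At about 1 count per CPM, members with a mean under 10 CPM were measured with large counting error.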

Other observations

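The level of ENSGACG00000005997 was set side by side in open-field and baseline fish with the same family and fish number, a pairing read from the fish codes that the labels do not state. Among pairs with both fish usable, both were over 80 CPM in 14, neither in 58, only the open-field fish in 25 and only the baseline fish in 17. The intraclass correlation of its log2 level was 0.205 over pairs and 0.0092 over families, where the median over all genes was 0.097 and 0.063. The median member had 0.112 over pairs. For the mean of the 40 members it was 0.149 over pairs, 0.116 after the side means had been subtracted, and -0.0015 over families. Paired fish shared the brain side, and side means were not subtracted for the leading gene alone. These are descriptions with no test.

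The 40 genes built in the same way around ENSGACG00000017329, a gene taken in the same way for the left side, shared 0 members with the 40 described here. Unrelated sets of 40 among 11023 genes seldom share a member, so nothing is read from this count. The correlation of the 2 starting genes over all usable fish was -0.029, and that of the right-side members with ENSGACG00000017329 ran from -0.153 to 0.061, with a median of -0.049. The median over all genes is not given for ENSGACG00000017329.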
